A study of Mus musculus with 12 samples.

Results

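The upper cortical layer markers are 10 genes, Cux1, Cux2, Rasgrf2, Calb1, Otof, Mdga1, Wfs1, Inhba, Rorb and Lamp5, named as markers of layers 2 to 4 and each read from its single-gene probe set. All 10 were measured, among 18820 genes with a single-gene probe set, and each of the 10 had 1 such probe set, so that no choice between probe sets was made. Expression was measured in the micro-dissected medial prefrontal cortex of C57BL/6N mice at 12 weeks of age, after behavioural testing, with 1 Affymetrix array per animal. The control group held 6 offspring of mothers given saline intravenously on gestation day 17, and the PolyI:C group held 6 offspring of mothers given 5 mg/kg of PolyI:C by the same route on that day. PolyI:C is a man-made double-stranded RNA to which the immune system responds as to a virus, so the comparison asks how late prenatal immune activation bears on adult cortex. The labels call the samples biological replicates and give neither litter nor sex, so the p-values rest on the spread among these 12 mice, which may include littermates.

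The neurons of the cerebral cortex lie in layers that differ in birth date and in where their axons go. Upper-layer neurons are born late in gestation and send axons mostly to other cortical areas, including across the corpus callosum, while deep-layer neurons are born earlier and project largely to targets below the cortex. Medial prefrontal cortex of the mouse lacks a distinct granular layer 4, so Rorb, a layer 4 marker in sensory areas, marks a thinner band of neurons there. None of the 10 genes is made by upper-layer neurons alone: Calb1 and Lamp5 are also made by classes of inhibitory interneurons, and Calb1 by striatal neurons. In tissue pieces a larger share of upper-layer neurons and more RNA per such neuron cannot be told apart.

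The tissue label was checked against markers of cortical excitatory neurons. Slc17a7, the vesicular glutamate transporter of these cells, had a control mean of 10.8 and Camk2a, a postsynaptic kinase, of 11.4 on the log2 scale, where array medians lay between 5.15 and 5.21. None of the 7 markers of this kind passed in limma, and Slc17a7 was level between the groups (difference -0.001, adjusted p = 0.99). Controls 5 and 6 stood apart by their striatal markers, whose mean lay 0.37 and 0.23 above the control mean in those animals, against at most -0.02 in any other animal.

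After PolyI:C 9 of the 10 upper-layer markers had a higher mean, by 0.02 to 0.25 on the log2 scale, and 1, Mdga1, had a lower mean. None passed the limma test at an adjusted p under 0.05, which 2.83% of all 23099 probe sets with an annotated gene did. At an unadjusted p under 0.05, 4 of the 10 were higher (Calb1, Rorb, Inhba and Rasgrf2) and none lower. Of all 23099 probe sets 11.7% were higher at that level and 1694 were lower. A higher mean was found in 52% of all probe sets. The groups of no member were fully separated, against 2.37% of all probe sets. The median difference was 0.12 over the members and 0.003 over all probe sets. The members were chosen with earlier results of these data known, so their counts set against all probe sets carry no test. Errors of differences are moderated standard errors (SE) of the limma fit.

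**Figure D1:**
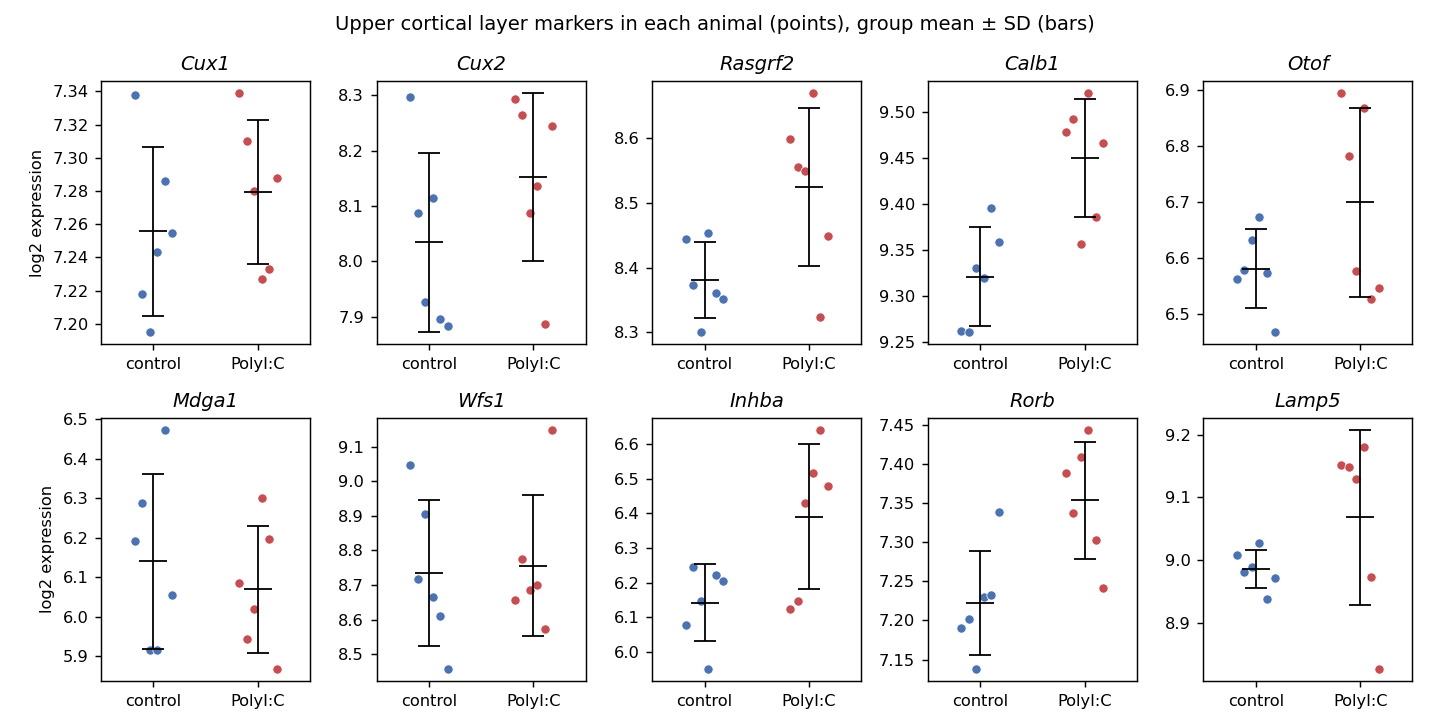
Log2 expression (vertical axes, 1 panel per gene with its own range) of the 10 upper-layer markers in 6 control and 6 PolyI:C offspring. Points are animals, horizontal marks are group means and bars are SD; the groups overlap in every panel, and in Calb1, Rasgrf2, Inhba and Lamp5 4 of 6 PolyI:C animals lie above the highest control.

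Calb1 encodes calbindin, a calcium-buffering protein of upper-layer neurons and of some interneurons. Its probe set read from 9.26 to 9.40 with a median of 9.33 in controls, and from 9.36 to 9.52 with a median of 9.47 after PolyI:C. All 6 PolyI:C animals lay above the control mean and 4 above the highest control, while PolyI:C 3 and 5 fell inside the control range. The difference was 0.13 ± 0.04 (SE), or 1.09-fold, with a 95% interval of 0.05 to 0.20, and it did not pass (limma adjusted p = 0.062). Without control 5, the highest control, it passed (0.14, limma adjusted p = 0.046), as it did without controls 5 and 6 together (0.16, adjusted p = 0.049).

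Rorb encodes an orphan nuclear receptor used to mark layer 4 and its border with layer 5. Controls ran from 7.14 to 7.34 with a median of 7.22, and PolyI:C animals from 7.24 to 7.44 with a median of 7.36. Here too all 6 PolyI:C animals exceeded the control mean, but only 3 exceeded the highest control, which was control 6. The difference of 0.13 ± 0.04 (95% interval 0.05 to 0.22) did not pass (limma adjusted p = 0.082), nor did it in any fit that left out 1 animal (adjusted p from 0.054 to 0.16). Rora, the related receptor gene, differed by 0.11 ± 0.04 and did not pass either (adjusted p = 0.17).

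Rasgrf2 encodes a calcium-responsive exchange factor for Ras that marks layer 2 and 3 neurons. Values lay between 8.30 and 8.45 in controls (median 8.37) and between 8.32 and 8.67 after PolyI:C (median 8.55). PolyI:C 1, 2, 3 and 4 were all above the highest control, PolyI:C 6 was just below it and PolyI:C 5 was near the lowest. The difference was 0.14 ± 0.05 (95% interval 0.04 to 0.25; limma adjusted p = 0.12), and it passed without PolyI:C 5 (0.18, limma adjusted p = 0.029).

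Inhba encodes the beta A subunit of activin and inhibin, secreted ligands of the transforming growth factor beta family, and is induced by neuronal activity. It had the largest difference of the 10. Controls ran from 5.95 to 6.25 (median 6.18) and PolyI:C animals from 6.12 to 6.64, and PolyI:C 3, 4, 5 and 6 lay above every control while PolyI:C 1 and 2 lay among them. The difference was 0.25 ± 0.08, or 1.19-fold (95% interval 0.08 to 0.42), and did not pass (limma adjusted p = 0.096). Without PolyI:C 2 it passed (0.30, limma adjusted p = 0.044). PolyI:C 3 and 4 lay above every control in both Inhba and Rasgrf2, whereas PolyI:C 5 had the highest Inhba and the lowest Rasgrf2 of its group.

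The 4 genes just described are those with an unadjusted p under 0.05, and the start-site windows of 3 of them are shown so that their sequences can be set side by side. Each is the 250 bases before a RefSeq transcript start of build GRCm38.p6, on the coding strand; 8 of the 10 members had a window in the table, and Calb1 and Otof are named only. Searched on both strands were TGACGTCA (the cyclic AMP response element), its core TGACG, which lies inside it, AGGTCA (a half-site of nuclear receptors of the kind Rorb encodes) and CANNTG (the E-box, bound by neurogenic helix-loop-helix factors), which stand in capitals. Rasgrf2 (chr13:92131829-92132078, minus strand) held an E-box that overlaps a TGACG, in a window of 65.2% G and C. Inhba (chr13:16011601-16011850, plus strand, 43.2% G and C) and the first listed start of Rorb (chr19:19111197-19111446, minus strand, 66.0% G and C) held none of the 4 motifs. A second listed start of Rorb (chr19:19001118-19001367, minus strand), not printed, held 2 E-boxes and none of the other 3 motifs.
Rasgrf2: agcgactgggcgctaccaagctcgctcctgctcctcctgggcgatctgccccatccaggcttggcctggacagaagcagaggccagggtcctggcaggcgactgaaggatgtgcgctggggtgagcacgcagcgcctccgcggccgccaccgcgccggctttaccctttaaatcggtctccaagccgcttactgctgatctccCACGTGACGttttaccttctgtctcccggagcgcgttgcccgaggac
Inhba: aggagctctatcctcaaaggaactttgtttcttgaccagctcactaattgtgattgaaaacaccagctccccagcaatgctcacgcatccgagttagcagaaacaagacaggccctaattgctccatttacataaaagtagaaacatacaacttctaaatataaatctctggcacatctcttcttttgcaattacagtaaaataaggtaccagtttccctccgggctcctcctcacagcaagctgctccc
Rorb: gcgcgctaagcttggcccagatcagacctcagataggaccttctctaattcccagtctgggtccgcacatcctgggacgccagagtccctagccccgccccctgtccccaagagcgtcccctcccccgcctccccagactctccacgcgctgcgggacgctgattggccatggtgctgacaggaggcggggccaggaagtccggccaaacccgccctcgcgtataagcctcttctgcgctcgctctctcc
Of 32851 windows of this length, 1.55% held TGACGTCA, 17.8% TGACG, 14% AGGTCA and 66.2% CANNTG. These are matches of letters and describe only these windows.

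Among the remaining markers of layer 2 and 3 neurons, Cux2, a homeodomain transcription factor of upper-layer neurons, ran from 7.88 to 8.30 in controls (median 8.01) and from 7.89 to 8.29 after PolyI:C (median 8.19). The ranges coincided, although 5 of 6 PolyI:C animals were above the control mean, and the difference was 0.12 ± 0.07 (95% interval -0.04 to 0.28; limma adjusted p = 0.41). Cux1, its paralogue, was nearly level, at 0.02 ± 0.03, with the narrowest interval of the 10 (-0.05 to 0.09; limma adjusted p = 0.74), and its sign turned after quantile normalization (-0.009). Its controls lay between 7.20 and 7.34 and its PolyI:C animals between 7.23 and 7.34.

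Otof encodes otoferlin, a calcium sensor of vesicle fusion known from inner hair cells and used as a layer 2 and 3 marker. Controls lay between 6.47 and 6.67, and the PolyI:C animals split: PolyI:C 1, 2 and 4 read 6.895, 6.78 and 6.87, above every control, and PolyI:C 3, 5 and 6 read 6.58, 6.53 and 6.55, within the control range. The difference was 0.12 ± 0.06 (95% interval -0.01 to 0.25; limma adjusted p = 0.32). Lamp5, a lysosome-associated membrane protein of upper-layer neurons and neurogliaform interneurons, was tightly grouped in controls (8.94 to 9.03, SD 0.03). PolyI:C 1, 2, 3 and 4 read 9.13 to 9.18, above all controls, whereas PolyI:C 5 (8.97) was among them and PolyI:C 6 (8.83) below them. Its difference was 0.08 ± 0.05 (95% interval -0.03 to 0.19; limma adjusted p = 0.40), with an SD of 0.14 after PolyI:C, and it was 0.13 without PolyI:C 6 (adjusted p = 0.092). Rasgrf2, Otof and Lamp5 therefore shared their high animals, PolyI:C 1, 2 and 4, with PolyI:C 3 high in Rasgrf2 and Lamp5 but not in Otof.

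Wfs1 and Mdga1 varied most among controls. Wfs1 encodes wolframin, a membrane protein of the endoplasmic reticulum, and ran from 8.46 to 9.05 in controls and from 8.57 to 9.15 after PolyI:C, with medians of 8.69 in both groups. Its difference was 0.02 ± 0.10 (95% interval -0.18 to 0.23; limma adjusted p = 0.93), and it lay below 0 without control 5 (-0.002), control 6 (-0.03) or PolyI:C 6 (-0.06). Mdga1 encodes a membrane-anchored protein that binds neuroligin 2 and limits inhibitory synapses. Its controls ran from 5.915 to 6.47 and its PolyI:C animals from 5.87 to 6.30, and its difference was -0.07 ± 0.09 (95% interval -0.26 to 0.12; limma adjusted p = 0.71). That value was -0.004 without control 5, the highest control, and between -0.12 and -0.03 without any other single animal.

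**Figure D2:**
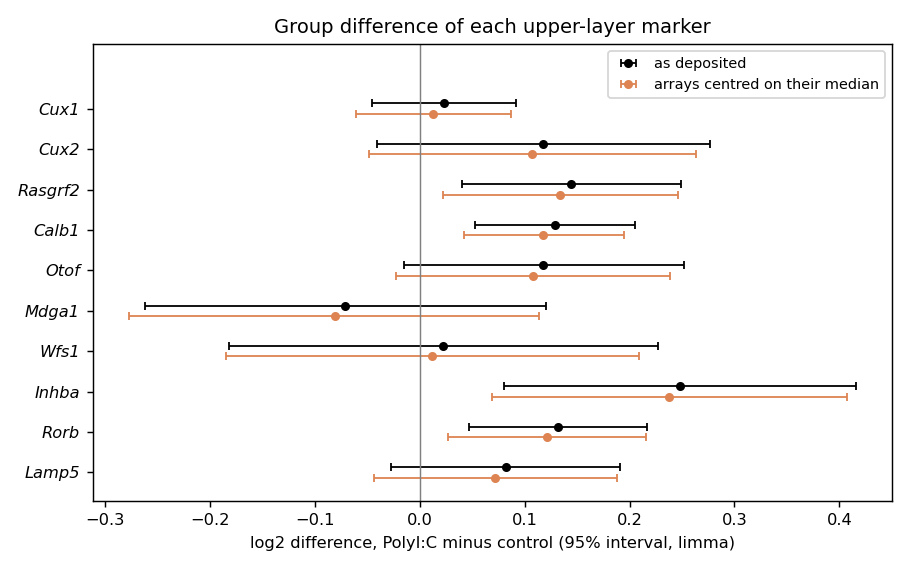
Log2 difference, PolyI:C minus control, of each upper-layer marker (horizontal axis) with its 95% interval from limma, as deposited (black) and with each array centred on its median (orange). The intervals of Calb1, Rorb, Inhba and Rasgrf2 lie above 0 on both scales, those of the other 6 include 0, and each orange point lies 0.01 to the left of its black one.

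Centring each array on its median over all rows lowered every member's difference by 0.01 and moved the median over all probe sets from 0.003 to -0.007. The members' median was 0.11 on that scale and 9 of 10 means stayed higher, where a higher mean was found in 45.4% of all probe sets. The differences were then 0.12 ± 0.04 for Calb1, 0.12 ± 0.04 for Rorb, 0.13 ± 0.05 for Rasgrf2 and 0.24 ± 0.08 for Inhba, with limma adjusted p of 0.090, 0.16, 0.19 and 0.12. Again no member passed, against 2.29% of all probe sets, and 4 were higher at an unadjusted p under 0.05, against 8.4%.

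In the animals taken singly, the mean shift of the 10 members from their control means ran from -0.05 to 0.06 in controls and from 0.03 to 0.18 after PolyI:C. PolyI:C 4 had the highest shift (0.18), followed by PolyI:C 1 (0.12), 2 (0.10), 6 (0.08), 3 (0.07) and 5 (0.03). The last lay below control 1 (0.06), so the groups overlapped. PolyI:C animals had 4 to 9 of the 10 members above the control mean, with PolyI:C 2 at 9 and PolyI:C 5 at 4, and controls 3 to 6. After array centring PolyI:C 5 was at -0.003 and PolyI:C 4 at 0.19.

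Deep-layer markers were counted for comparison, from a list of 22 of which 21 were measured. Among them 17 had a lower mean, 1 fell past the threshold and none rose (2.02% of all probe sets rose and 0.805% fell), with a median difference of -0.06. The call was Bcl11b, a transcription factor of neurons that project below the cortex (-0.16 ± 0.04, limma adjusted p = 0.040), which passed in 3 of the 12 fits that left out 1 animal (adjusted p from 0.024 to 0.095). Cplx3 and Ccn2, markers of the deepest neurons, had differences of -0.21 ± 0.06 and -0.26 ± 0.08, neither past the threshold (adjusted p = 0.068 and 0.090). Higher means were found in 4 markers, Deptor (0.12), Etv1 (0.06), Sox5 (0.03) and Tbr1 (0.01), where 52% of all probe sets had one. Fezf2 (-0.008) and Sema3e (-0.005) were nearly level. After array centring 2 deep-layer markers had fallen, Bcl11b and Cplx3 (-0.22, limma adjusted p = 0.046), and the list median was -0.07. The count of deep-layer calls was 0 without control 1, 2, 3 or 6 and without PolyI:C 1, 3, 4 or 6, and 3 without PolyI:C 5. It was also 0 without moderation or when all rows were tested. The deep-layer mean shift was lowest in PolyI:C 4 (-0.19), then PolyI:C 2 (-0.11) and PolyI:C 1 (-0.09), and highest in PolyI:C 5 (0.06); controls lay between -0.05 and 0.03. The shift of upper-layer members less that of deep-layer markers was thus 0.37 in PolyI:C 4, 0.21 in PolyI:C 1 and 2, 0.12 in PolyI:C 6 and 0.11 in PolyI:C 3, against at most 0.06 in any control and -0.03 in PolyI:C 5. This quantity does not change when arrays are centred, and it carries no test because the members were chosen with results known.

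**Figure D3:**
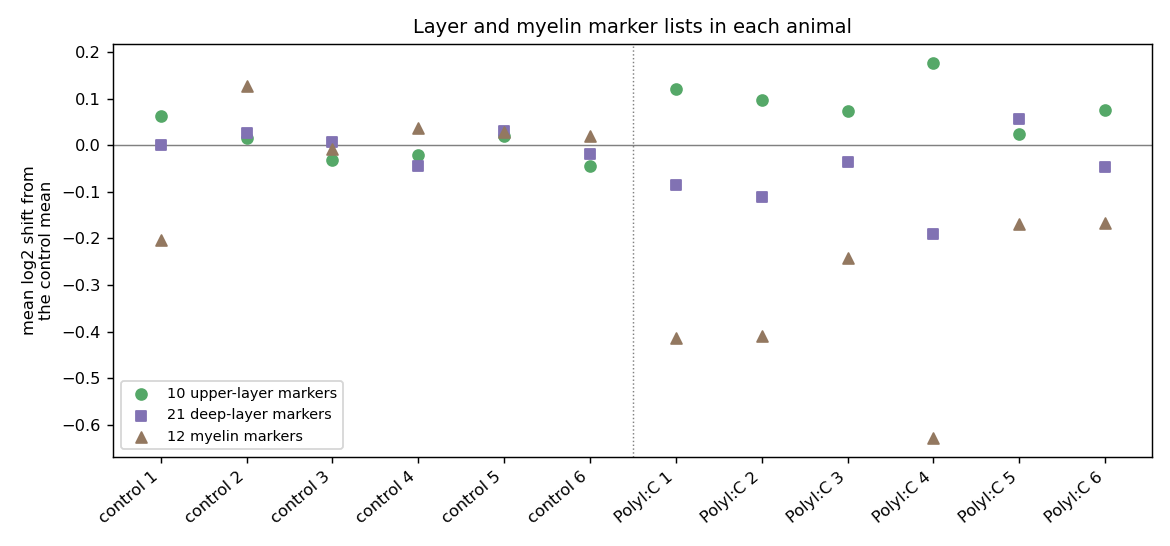
Mean log2 shift from the control mean (vertical axis) of the 10 upper-layer markers (circles), 21 deep-layer markers (squares) and 12 myelin markers (triangles) in each of the 12 animals. PolyI:C 4 has the highest upper-layer shift (0.18) and the lowest deep-layer (-0.19) and myelin (-0.63) shifts, and in PolyI:C 5 the deep-layer shift (0.06) is above the upper-layer one (0.03).

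Myelin and striatal markers had lower means after PolyI:C than in controls. Of 12 myelin and oligodendrocyte markers 9 fell and none rose, Cldn11, the tight-junction protein of myelin, by 0.44 ± 0.08 with no overlap (limma adjusted p = 0.011), and 12 of 12 means were lower. Of all probe sets 0.805% fell, 2.02% rose, 2.37% had separate groups and 52% had a higher mean. The count of myelin calls was 2 without control 2 or PolyI:C 1, 3 without control 3, 4 without PolyI:C 4, 6 without control 6, 2 when all rows were tested and 0 without moderation. The myelin shift was from -0.20 to 0.13 in controls and from -0.63 to -0.17 after PolyI:C, lowest in PolyI:C 4 (-0.63), 1 (-0.41) and 2 (-0.41), the 3 animals with the highest upper-layer shifts as deposited, and mildest in PolyI:C 6 and 5 (both -0.17). After array centring the highest upper-layer shifts were those of PolyI:C 4 (0.19), 3 (0.105) and 1 (0.09), and PolyI:C 3 had a myelin shift of -0.21. Of 12 measured striatal markers 12 had lower means and 1 fell, Ppp1r1b, which encodes a dopamine-regulated inhibitor of protein phosphatase (-0.27 ± 0.06, limma adjusted p = 0.028). That call was lost in 5 of the 12 fits that left out 1 animal. The striatal shift was from -0.26 to 0.37 in controls and from -0.32 to -0.14 after PolyI:C. It was 0.37 in control 5 and 0.23 in control 6, and from -0.26 to -0.02 in the other controls. These lists were chosen with earlier results known, and their part in the upper-layer differences was not tested. With controls 5 and 6 left out, the call of Ppp1r1b was lost (-0.18, limma adjusted p = 0.054) and 6 myelin markers passed. Gpr6, Drd2 and Isl1 had the lowest p of the striatal list after Ppp1r1b. Without those controls they differed by -0.25, -0.25 and -0.10, against -0.49, -0.54 and -0.13 with all animals. Among the members Cux2 then differed by 0.05, Wfs1 by -0.08 and Mdga1 by -0.009, while Calb1 was at 0.16, Rorb at 0.16, Inhba at 0.28, Rasgrf2 at 0.13, Otof at 0.09, Lamp5 at 0.07 and Cux1 at 0.03.

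None of the interneuron markers (12), astrocyte markers (8) or microglia markers (6) passed in limma at an adjusted p under 0.05; at an unadjusted p under 0.05 there were 2, none and none. The 2 were Sst, the peptide of a class of interneurons (-0.09 ± 0.03), and Slc32a1, the vesicular GABA transporter (-0.10 ± 0.04), both with lower means. At that level 1694 of all 23099 probe sets were lower and 2707 higher. The median difference of the 12 interneuron genes was -0.03, with 5 higher and 7 lower means. Calb1 and Lamp5, which some interneurons also make, had higher means, and the part of interneurons in their differences was not tested.

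A second list of upper-layer and callosal genes, which does not hold the 10 members, was counted in the same fit. Of 25 genes 23 were measured, 3 rose, none fell and 20 did not pass, where 2.02% of all probe sets rose and 0.805% fell. Means were higher in 13 and lower in 10, where 52% of all probe sets had a higher mean, and the median difference was 0.015. Not called were, among others, Pou3f1 (-0.04), Pou3f2 (-0.06), Pou3f3 (-0.04), Lhx2 (-0.03), Unc5d (-0.01) and Plxnd1 (0.015). The first of the 3 calls was Lmo4, a LIM-domain cofactor of transcription in callosal neurons. Its controls ran from 9.92 to 10.03 and its PolyI:C animals from 10.04 to 10.17. The groups were separate by a narrow gap (control 1 at 10.031, PolyI:C 5 at 10.037), where 2.37% of all probe sets were separate. After array centring they overlapped. The difference was 0.12 ± 0.03 (limma adjusted p = 0.048). Ddit4l, an inhibitor of mTOR signalling, ran from 6.18 to 6.42 in controls and from 6.30 to 6.76 after PolyI:C (0.26 ± 0.07, adjusted p = 0.042). Trpc6, a cation channel, ran from 6.43 to 6.64 and from 6.545 to 6.83 (0.18 ± 0.05, adjusted p = 0.039). In Ddit4l and Trpc6 5 of 6 PolyI:C animals exceeded every control and PolyI:C 5 did not. All 3 calls were lost after array median centring (adjusted p = 0.087, 0.053 and 0.060) and after quantile normalization (0.12, 0.076 and 0.076), and Lmo4 passed in 1, Ddit4l in 2 and Trpc6 in 3 of the 12 fits that left out 1 animal. Ptgs2, the activity-induced cyclooxygenase of layer 2 and 3 neurons, differed by 0.21 ± 0.07 and did not pass (adjusted p = 0.087). With the replicate number as a block Ptgs2 passed (limma adjusted p = 0.039) and the calls of Ddit4l (0.052) and Lmo4 (0.061) were lost.

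Inhba was followed into its pathway. Activins are dimers of beta subunits and inhibins pair a beta with the alpha subunit, which Inha encodes; activins act through paired serine-threonine kinase receptors and the Smad proteins. Of 15 listed pathway genes other than Inhba 13 were measured, 1 rose, none fell and 12 did not pass, where 2.02% of all probe sets rose and 0.805% fell. The median difference of the 13 was 0.03. The gene that rose was Inha (probe set 10347669). Its controls read 6.22 to 6.43 (median 6.37) and its PolyI:C animals 6.51 to 6.73 (median 6.58). Every PolyI:C animal was thus above every control, where 2.37% of all probe sets were separate in either direction. The difference was 0.25 ± 0.05, or 1.19-fold (95% interval 0.15 to 0.35; limma adjusted p = 0.012), and it passed in all 12 fits that left out 1 animal (adjusted p from 0.011 to 0.031) and after array centring (0.24, adjusted p = 0.013). Without variance moderation it did not pass (adjusted p = 0.056).

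Inhbb, the beta B subunit, differed by -0.11 ± 0.06 (95% interval -0.23 to 0.01; limma adjusted p = 0.31), with PolyI:C 1, 3 and 6 below the lowest control and PolyI:C 4 above the highest. Of the receptors, Acvr1c differed by 0.13 ± 0.05 and Acvr1 by 0.07 ± 0.03, and neither passed (adjusted p = 0.20 and 0.21). The window before the RefSeq start of Inha (chr1:75507359-75507608, plus strand, GRCm38.p6) is shown because Inha was the one subunit gene past the threshold; in capitals is its AGGTCA, and none of the other 3 motifs is in it.
Inha: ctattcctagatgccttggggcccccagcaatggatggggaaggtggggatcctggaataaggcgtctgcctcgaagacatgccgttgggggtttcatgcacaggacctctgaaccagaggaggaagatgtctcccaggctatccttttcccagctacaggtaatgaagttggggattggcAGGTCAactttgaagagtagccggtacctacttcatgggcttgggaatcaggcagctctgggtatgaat

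**Figure D4:**
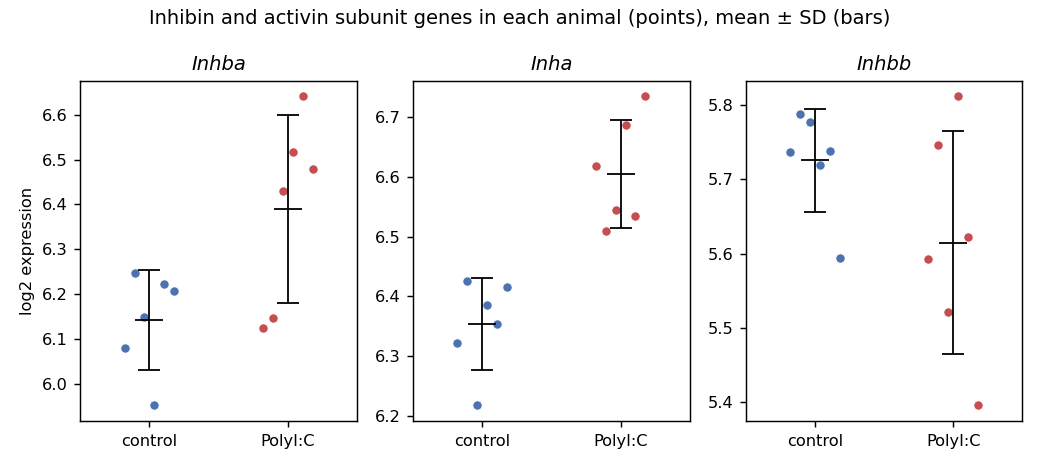
Log2 expression (vertical axes, 1 panel per gene with its own range) of Inhba, Inha and Inhbb in 6 control and 6 PolyI:C offspring, with animals as points and group means and SD as bars. The groups are separate in Inha (highest control 6.43, lowest PolyI:C 6.51) and overlap in Inhba and Inhbb.

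Because Inhba is induced by activity, 12 genes that neuronal firing induces, immediate early genes among them, were read beside it. None passed in limma, against 2.83% of all probe sets. At an unadjusted p under 0.05, 1 was higher, where 11.7% of all probe sets were. Higher means were found in 11, against 52% of all probe sets, with a median difference of 0.09. That 1 was Npas4, an activity-dependent transcription factor (0.67 ± 0.19, limma adjusted p = 0.063): controls ran from 5.97 to 6.70 and PolyI:C 1 to 5 from 6.83 to 7.56, while PolyI:C 6 read 6.16. Of the 12 fits that left out 1 animal it passed in 1, without PolyI:C 6 (0.84, limma adjusted p = 0.013), and the adjusted p reached 0.13. It passed with the replicate number as a block (0.034) and among the brighter 50% of probe sets (0.047), but not after array centring (0.064). The mean shift of the 12 genes ran from -0.15 to 0.12 in controls and was 0.36 in PolyI:C 4, 0.34 in PolyI:C 5 and -0.33 in PolyI:C 6. Inhba was above every control in all 3 of these animals, including PolyI:C 6 (6.48). The part of activity in the Inhba difference was not tested.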

How the data were processed

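RNA of 12 animals was hybridised to Affymetrix Mouse Gene 1.1 ST strips, per the labels' protocols. These name both a 3' IVT and a whole-transcript kit and do not say which served. Each deposited value is a log2 expression level of 1 probe set, judged from the range. The submitters' processing notes list RMA and Partek 6.6 with no role or order; the build behind the probe sets is not given in the sources consulted. Such normalization makes array distributions alike and can compress small differences. All 12 columns and 35556 probe sets were read; 21218 carried 1 gene symbol in the platform annotation, which can be old, and 21185 of these were matched to RefSeq (GRCm38.p6).

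Groups were compared as PolyI:C minus control with lmFit and eBayes (limma 3.58.1 under R 4.3.3). No covariate was used, tests were two-sided, and p-values were adjusted by Benjamini-Hochberg over the 23099 probe sets with a gene. The fit was tested on simulated data. The members, the lists and the alternatives were chosen with earlier results of these data known. Named were all members, and of each other list the calls and up to 4 genes with the lowest p, of which the text gives the most relevant. Some genes of those lists that were level or went the other way are named beside them. Alternatives were array centring, quantile normalization, a replicate block, array weights, filters keeping the brighter 75% or 50% of probe sets, all rows, eBayes with trend and robust, no moderation, the mean over a gene's probe sets, and leaving out animals. The number of arrays limits the precision. Plots were drawn with matplotlib 3.10.9 in Python 3.11.15.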

Additional observations from a re-analysis of the deposited data

Results flagged for a closer look

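Wfs1 in PolyI:C 6 read 9.15, far above the other 5 PolyI:C animals, whose values lay between 8.57 and 8.78; the gap was 0.65 of the group's whole range. It was the only such value among 26 groups of 6 tested (both groups of the 10 members and of 3 list measures), and chance marks about 1 in 20 such groups. Control 1 read 9.05 for the same gene.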

How the results depend on the processing

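The number of upper-layer members past the threshold was 0 in the fit reported and 1, Calb1, among the brighter 50% of probe sets (adjusted p = 0.040), with eBayes trend and robust (0.036) and without controls 5 and 6 (0.049). Leaving out 1 animal gave 0 to 1 members: Calb1 without control 5, Inhba without PolyI:C 2 and Rasgrf2 without PolyI:C 5. Over all probe sets the calls numbered 653, with 414 when all rows were tested, 122 without moderation, and 230 to 818 when 1 animal was left out. Cux1 turned to -0.009 after quantile normalization, and Wfs1 to -0.003 after it and to -0.078 without controls 5 and 6; leaving out 1 animal gave Wfs1 differences of -0.056 to 0.085. The other 8 members kept their sign in all 23 alternatives. Same-numbered animals did not deviate together (correlations from -0.092 to 0.11 over 6 pairs, with 1 of 12 animals closest to their own number), so the replicate block pairs nothing known from the design; with it 0 members and 536 probe sets passed.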

Other observations

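Relatives and partners of the members gave further values. Of 13 measured relatives, a list that shares Inha and Inhbb with the activin genes, 1 rose, Inha, and none fell. Of all probe sets 2.02% rose and 0.805% fell. Dysf and Myof, ferlin genes related to Otof, differed by 0.10 ± 0.03 and -0.083 ± 0.035, and Lamp1, a widely made relative of Lamp5, by -0.10 ± 0.04. None of Dysf, Myof and Lamp1 passed in limma (adjusted p = 0.10, 0.21 and 0.14). Of the 12 fits that left out 1 animal Dysf passed in 1, without PolyI:C 2 (limma adjusted p = 0.045). The neuroligins, partners of the protein encoded by Mdga1, included Nlgn1 at 0.09 ± 0.04 (limma adjusted p = 0.20), Nlgn2 at -0.01 ± 0.05 and Nlgn3 at -0.003 ± 0.03, none of them called.

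Among 14179 other genes in the brighter 75% of probe sets, the 5 whose values followed the mean of the 10 members most closely over the 12 animals, after each group's mean had been subtracted, were Lonrf1 (likeness, as Pearson's r, 0.94), Auts2 (0.93), Ablim3 (0.92), Ankrd6 (0.91) and Cpne5 (0.91). They are the extremes of a large search over few animals and a description only. Lonrf1 differed between groups by 0.16 ± 0.05 (limma adjusted p = 0.068) and the other 4 by -0.03 to 0.04. Neurod6, a transcription factor of cortical excitatory neurons, differed by 0.12 ± 0.04 and did not pass (adjusted p = 0.10), with 4 of 6 PolyI:C animals above every control.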
